A study of Mus musculus with 2 samples.

Results

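CTCF peaks called in both mouse embryonic stem (ES) cells and mouse embryonic fibroblasts (MEFs), but ranked high in 1 list and below the median of the other, are described here. A pair was an ES peak on chromosomes 1 to 19 that overlapped its nearest MEF peak by at least 1 bp, with both deposited scores below 400. Of 11283 such pairs, 878 (7.78%) were in the first class, with an ES score in the top 20% of the ES list and a MEF score below the MEF median (ES-high sites). The second class, with the reverse pattern (MEF-high sites), held 1678 pairs (14.9%). Together they made up 2556 pairs, taken from lists of 44424 ES peaks and 53736 MEF peaks. The ES cells had the genetic background Bl3.10 and C57BL and the MEFs C57BL6, and each cell type gave 1 chromatin immunoprecipitation library made with an antibody against CTCF. Both were grown in a serum-containing medium, and the labels give neither passage, sex, embryo number nor clone. With 1 library each, an effect of the cell type, of the background or of the library itself cannot be told apart. Peak lists hold no expression values, so the labelled cell types could not be checked against marker genes.

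CTCF is a zinc-finger protein that binds a long GC-rich motif and is known for blocking enhancers and for holding the bases of chromatin loops together with cohesin. Many of its sites are occupied in most tissues, while others vary between cell types, for example where methylation of the motif prevents binding. ES cells are pluripotent cells of the early embryo, and MEFs are connective-tissue cells of a later stage. The study asked where CTCF is bound in each of these cell types.

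The scores chose the members, so their scores are a description and support nothing. The score is the authors' own value per peak and is undefined. It was used only to rank peaks within a list, as a percentile (the percentage of the list at or below that rank, tied peaks sharing the mean rank). The top 20% began at a score of 109 in ES cells and 75 in MEFs, and the medians were 70 and 48. At the ES-high sites the median ES percentile was 91.2 (quartiles 85.6 and 95.9) and the median MEF percentile 26.8 (14.1 and 38.0). At the MEF-high sites the median MEF percentile was 91.9 (86.5 and 96.0) and the median ES percentile 25.1 (12.9 and 37.9). The limits cut through a continuous range. There were 11 ES-high sites with an ES score of exactly 109 and 16 pairs just outside with a score of 108 and a low MEF score. A MEF score of 47 put 38 pairs inside, and a MEF score of 48 left 34 pairs with a high ES score outside. For MEF-high sites, 25 lay at a MEF score of 75 against 28 outside at 74, and 37 at an ES score of 69 against 43 outside at 70.

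Opposite ranks were common, and only somewhat rarer than if the scores of each pair had been matched at random. ES-high sites were 7.78% of all pairs (95% Wilson interval 7.30 to 8.29) and MEF-high sites 14.9% (14.2 to 15.5). The random expectation was the product of the margins. A high ES score was held by 3470 pairs and a low MEF score by 3587 pairs, which gives 1103 pairs with both. The observed number was 0.796 times that (95% Poisson interval 0.744 to 0.850). For MEF-high sites, 4703 pairs had a high MEF score and 4650 a low ES score, which gives 1938 pairs, and the observed number was 0.866 times that (0.825 to 0.908). Pairs high in both lists numbered 1714, or 1.19 times the expectation (1.13 to 1.24), and pairs low in both numbered 1722, or 1.16 times (1.11 to 1.22). These counts come from the same scores as the rule, and intervals cover counting error over pairs of 1 library each, so no test was made. Spearman's rho between the scores of all 11283 pairs was 0.16.

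MEF-high sites were 1.91 times as frequent as ES-high sites (95% exact binomial interval 1.76 to 2.08). Random pairing of the same scores would give a ratio of 1.76, because the margins of the pairs differ. Overlapping MEF peaks ranked high in their list, with 41.7% of pairs in the MEF top 20% and 31.8% below the MEF median. Their ES partners ranked lower, with 30.8% in the ES top 20% and 41.2% below the ES median. The imbalance between the classes went with these limits. When the top 20% and the median were taken among the pairs themselves, the numbers were 916 and 912. Such limits give both lists nearly the same margins, so nearly equal numbers were largely set by construction.

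**Figure D1:**
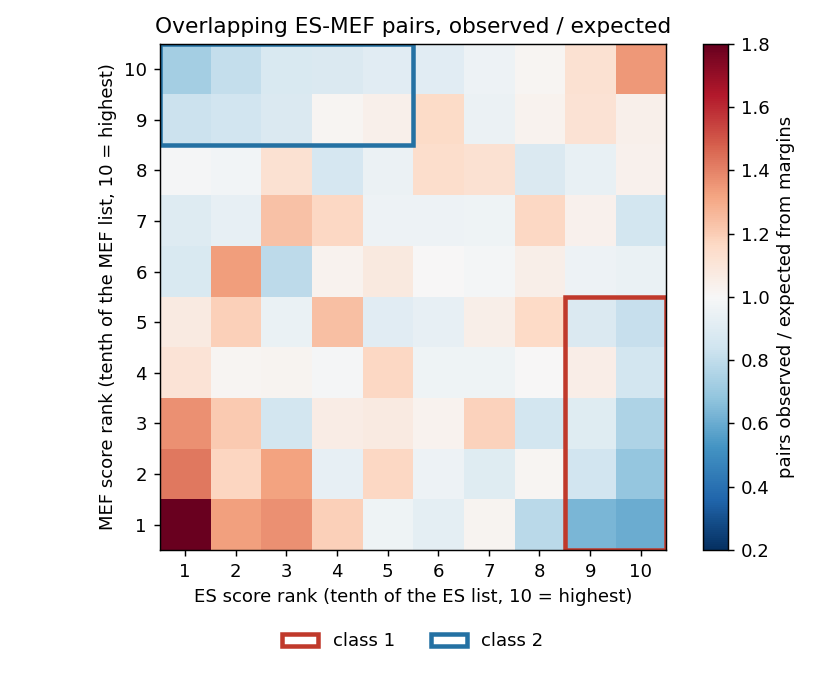
Number of overlapping pairs in each 10% step of score rank in the ES list (horizontal) and in the MEF list (vertical), divided by the number expected from the margins (color scale, 1 means as many as random pairing gives). The boxes mark approximately the steps of the 2 classes. The lowest ratio was for the highest 10% of the ES list with the lowest 10% of the MEF list, at 0.601, and the highest ratio for the lowest 10% of both, at 1.79.

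The shortfall deepened toward the corners of the rank table. In the highest 10% of the ES list, 80 pairs had a partner in the lowest 10% of the MEF list, against 133 expected, a ratio of 0.601. In the mirror case, 200 pairs joined the highest 10% of the MEF list with the lowest 10% of the ES list, against 275 expected, a ratio of 0.727. Sites with a near-complete exchange of rank were thus rarer than random pairing gives, but present in both directions. The ratio stayed below 1 on each of the 19 autosomes in both classes, from 0.547 to 0.908 for ES-high sites and from 0.791 to 0.988 for MEF-high sites.

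The sites with the largest rank differences are given next, leaving out those on chromosome 18. The most extreme ES-high site was on chromosome 16, with an ES peak at 24981595 to 24981993 (mm9, counted from 1) of score 256 and percentile 98.9. Its MEF partner had a score of 10 and percentile 0.41, but the starts were 394 bp apart, so the peaks shared only their edges. Another MEF peak of percentile 86.5 began 0.423 kb from the partner. The low-ranked partner thus lay beside a higher-ranked MEF call. The next was on chromosome 9 at 65044573 to 65044971, with an ES score of 342 and a MEF score of 13, and another MEF peak of percentile 14.1 lay 0.325 kb from the partner. On chromosome 3 at 86837297 to 86837695 the ES score was 249 and the MEF score 14, with starts 17 bp apart and no other peak of either list within 1 kb. No other of the 6 ES-high sites named was free of such neighbours.

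The other ES-high sites named were on chromosomes 2 and 9. On chromosome 2, the site at 172906413 to 172906811 had an ES percentile of 98.7 and a MEF percentile of 1.78. The site at 37627125 to 37627523, also on chromosome 2, had percentiles of 97.8 and 0.99, with another MEF peak of percentile 72.4 only 0.208 kb from the partner. On chromosome 9, the site at 107803676 to 107804074 had percentiles of 97.3 and 0.99. Of these 6 sites, all but those on chromosome 3 and at 107803676 on chromosome 9 had another MEF peak within 1 kb of the partner.

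Of the 6 largest differences among MEF-high sites, 4 are named. On chromosome 13, the MEF peak at 110549402 to 110549800 had a score of 202 and percentile 99.1, while the ES peak starting 30 bp away had a score of 10 and percentile 0.13. The nearest other peaks were 20.6 kb away in ES cells and 16.8 kb in MEFs. A further site on chromosome 13, with its MEF peak at 43660724 to 43661122, had percentiles of 99.6 in MEFs and 1.78 in ES cells, at an offset of 65 bp. On chromosome 6, the MEF peak at 49268857 to 49269255 had percentile 99.2 and its ES partner percentile 1.40, at an offset of 321 bp. The MEF peak at 73197426 to 73197824, also on chromosome 6, had percentile 97.8 and its ES partner percentile 0.13, at an offset of 35 bp. The nearest other peak of the same list was at least 7.77 kb away at each of these 4 sites. Sites on chromosome 18 are not named.

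Both classes were placed with the same precision, and this precision lay between those of the pairs high and low in both lists. The offset is the distance between the starts of paired peaks, which all have 1 width. Its median was 45.5 bp at ES-high sites (95% order-statistic interval 42 to 49, quartiles 21 and 98.8) and 45 bp at MEF-high sites (42 to 48, quartiles 21 and 97). Pairs high in both lists had a median of 32.5 bp (30 to 35) and pairs low in both 69 bp (63 to 75). Neither interval overlaps those of the opposite-rank classes, while the intervals of the classes themselves coincide. Over all pairs the median was 45 bp (44 to 47). Starts lay within 50 bp in 54.2% of ES-high sites (50.9 to 57.5) and in 54.2% of MEF-high sites (51.8 to 56.6). Starts more than 200 bp apart were found in 10.1% (8.31 to 12.3) and 12.2% (10.7 to 13.9), against 6.30% of pairs high in both and 19.98% of pairs low in both. The offset had no side, since the MEF peak lay to the right in 51.3% (47.9 to 54.5) and 48.0% (45.6 to 50.4).

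**Figure D2:**
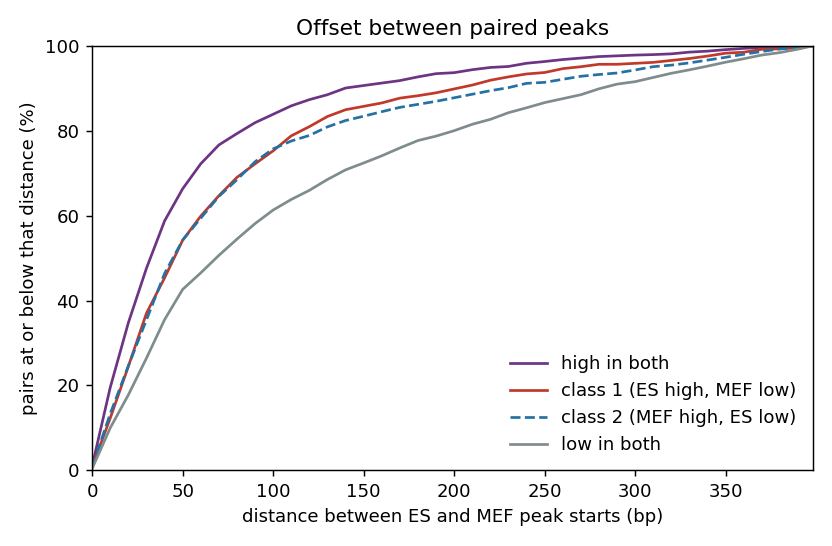
Cumulative percentage of pairs (vertical) at or below each distance between the ES and the MEF start in bp (horizontal), for the 2 opposite-rank classes and for pairs high or low in both lists. The lines of the classes run together, with medians of 45.5 and 45 bp, between 32.5 bp for pairs high in both and 69 bp for pairs low in both.

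The ratio to random pairing was below 1 in all 5 bands of offset, with intervals that overlap one another. Among the 2884 pairs whose starts lay within 20 bp, ES-high sites were 0.771 times the expectation (0.672 to 0.882) and MEF-high sites 0.861 times (0.780 to 0.948). Among the 1403 pairs with starts more than 200 bp apart, the ratios were 0.785 (0.631 to 0.966) and 0.881 (0.765 to 1.01). From 51 to 100 bp MEF-high sites came closest to random pairing, at 0.957 times (0.861 to 1.06), and in the next band, up to 200 bp, the ratio was 0.835 (0.724 to 0.959). Spearman's rho was 0.17 in the first group and 0.14 in the second, while in the 3 bands between it ran from 0.09 to 0.17. ES-high sites whose MEF peak ranked below percentile 10 had a median offset of 48 bp (34 to 59, 139 sites), those from 10 to 25 had 53 bp (44 to 66, 254 sites) and those from 25 to 50 had 42 bp (36 to 47, 485 sites). Starts more than 200 bp apart were found in 11.5% (7.21 to 17.9), 13.8% (10.1 to 18.6) and 7.84% (5.76 to 10.6) of them.

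Neighbouring peaks of the same cell type were about as frequent as over all pairs. ES neighbours at ES-high sites and MEF neighbours at MEF-high sites were less frequent than at pairs high in both lists. The intervals do not overlap, but those over all pairs were below pairs high in both in the same way. Another ES peak within 1 kb was found at 19.1% of ES-high sites (16.7 to 21.9) and at 23.4% of MEF-high sites (21.5 to 25.5), against 21.1% of all pairs (20.3 to 21.8). Another MEF peak within 1 kb of the partner was found at 18.2% (15.8 to 20.9) and 17.2% (15.4 to 19.0), against 18.2% of all pairs (17.5 to 18.9). Pairs high in both lists had another ES peak in 25.8% (23.8 to 27.9) and another MEF peak in 23.7% (21.8 to 25.8). Pairs low in both had 18.6% (16.8 to 20.5) and 16.9% (15.2 to 18.7), so the gap to pairs high in both is not particular to opposite ranks. The higher ES value of the MEF-high sites came with several ES peaks on 1 MEF peak. At 188 MEF-high sites (11.2%, 9.78 to 12.8) the MEF peak had another ES peak paired with it, against 56 ES-high sites (6.38%, 4.94 to 8.19). The 1678 MEF-high sites thus rested on 1637 different MEF peaks, and the 878 ES-high sites on 875. Pairs high in both lists shared a MEF peak less often than MEF-high sites, at 8.05% (6.86 to 9.44), but had an ES neighbour at 25.8%. With only mutually nearest pairs kept, another ES peak lay within 1 kb at 17.2% of ES-high sites (14.8 to 19.8) and 17.7% of MEF-high sites (15.9 to 19.7). That setting keeps only the nearest of several ES peaks on 1 MEF peak, so the fall was partly set by construction. The cause of the higher ES value was not tested.

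Part of the low ranks lay beside a high-ranked call of the same list, about as often as over all pairs. Another MEF peak of the top 20% lay within 1 kb of the MEF partner at 48 ES-high sites (5.47%, 4.15 to 7.17). All pairs gave 5.97% (5.55 to 6.43), pairs low in both lists 4.12% (3.28 to 5.17) and pairs high in both 11.03% (9.63 to 12.6). In 20 of the 59 ES-high sites whose ES peak overlapped several MEF peaks, an overlapping MEF peak other than the partner was in the top 20%. The same held for 34 of 91 such MEF-high sites, 88 of 171 pairs high in both lists and 21 of 106 low in both. At MEF-high sites another ES peak of the top 20% lay within 1 kb in 93 cases (5.54%, 4.55 to 6.74), against 6.07% (5.65 to 6.53) of all pairs. The shares were 4.59% (3.70 to 5.68) at pairs low in both and 10.2% (8.86 to 11.7) at pairs high in both. At 187 MEF-high sites another ES peak with a score below 400 was paired with the same MEF peak. In 49 of these cases that ES peak was in the ES top 20%. The counts were 6 of 56 at ES-high sites, 52 of 135 at pairs high in both and 31 of 130 at pairs low in both. At most sites of both classes no high-ranked second call was near. When each ES peak was paired with the highest-scoring MEF peak it overlapped, 842 ES-high and 1722 MEF-high sites were found.

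Low rank of the weaker partner did not go with closer neighbours. At ES-high sites with a MEF percentile below 10, another MEF peak lay within 1 kb in 15.1% (10.1 to 21.99), and at those between percentiles 25 and 50 in 19.4% (16.1 to 23.1). At MEF-high sites the corresponding shares of another ES peak were 24.3% (20.03 to 29.1) and 24.04% (21.3 to 27.0). The close neighbours of the extreme ES-high sites named above were thus not typical of the lowest MEF ranks.

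Pairs with opposite ranks were spread over all autosomes. ES-high sites made up from 5.33% of pairs on chromosome 3 (3.72 to 7.60) to 9.48% on chromosome 5 (7.61 to 11.8), with a mean of 7.64 ± 1.06% (SD over 19 chromosomes). MEF-high sites made up from 12.5% on chromosome 5 (10.3 to 14.99) to 17.7% on chromosome 13 (14.3 to 21.7), with a mean of 14.9 ± 1.28% (SD over 19 chromosomes). The variance between chromosomes was 0.89 and 0.75 times that of binomial counting, so the shares varied no more than counting error gives. MEF-high sites outnumbered ES-high sites on all 19 chromosomes, by 1.32 times on chromosome 5 to 2.68 times on chromosome 3. These 2 chromosomes also had the lowest and the highest number of MEF peaks per ES peak, 1.02 and 1.38. Across the 19 chromosomes, which are not replicates, the ratio of the classes and the number of MEF peaks per ES peak had a Pearson's r of 0.50 and a Spearman's rho of 0.40. Without chromosomes 3 and 5 the values were 0.18 and 0.16, so the relation of the ratio rests on them. Over all 19 chromosomes the share of ES-high sites alone had a Pearson's r of -0.57 and a Spearman's rho of -0.48 with MEF peaks per ES peak. For the share of MEF-high sites these were 0.12 and -0.05. Chromosomes 3 and 5 also had the lowest and the highest share of ES-high sites. The values for the shares were not recomputed without them, so how far they rest on these chromosomes was not tested.

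**Figure D3:**
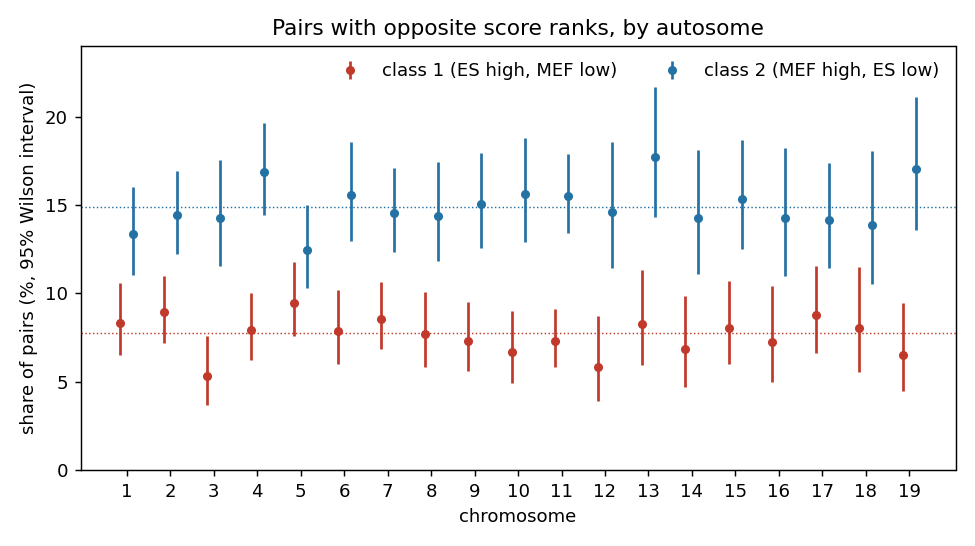
Share of the pairs of each autosome (horizontal) that were ES-high (class 1) or MEF-high (class 2), in percent with 95% Wilson intervals. Dotted lines mark 7.78% and 14.9%, the shares over all autosomes, and each class keeps near its line on all 19 chromosomes.

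The pairs around a member did not share its tilt. The rank difference of a pair is its ES percentile less its MEF percentile, and over all pairs its mean was -7.12 percentile points. For each member the other pairs from 1 to 100 kb away were averaged, which was possible for 669 ES-high and 1311 MEF-high sites. The median was -6.71 points around ES-high sites (-8.45 to -4.61) and -7.43 points around MEF-high sites (-9.08 to -5.53), against -7.44 points around all pairs (-8.11 to -6.85). Averaged by chromosome, the surroundings of ES-high sites exceeded those of MEF-high sites by 0.58 ± 8.78 points (SD over 19 chromosomes), and were higher on 10 of 19. At this distance, the pairs around either class were ranked like those around any pair.

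At shorter distances the means of the classes were further apart, but so were those of other groups. Among other pairs 0.4 to 1 kb away on a different MEF peak, the mean rank difference was -3.60 points around ES-high sites (77 other pairs) and -11.4 points around MEF-high sites (139 other pairs), against -6.15 points around all pairs. Pairs high in both lists gave -3.92 points (306) and pairs low in both -13.6 points (92), so a spread of this size is not particular to opposite ranks. From 1 to 10 kb the means were -5.34 points (382) and -8.41 points (712), and from 10 to 100 kb they were -7.56 points (1791) and -7.60 points (3542). The difference between the classes at short range rests on few pairs and was not tested.

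**Figure D4:**
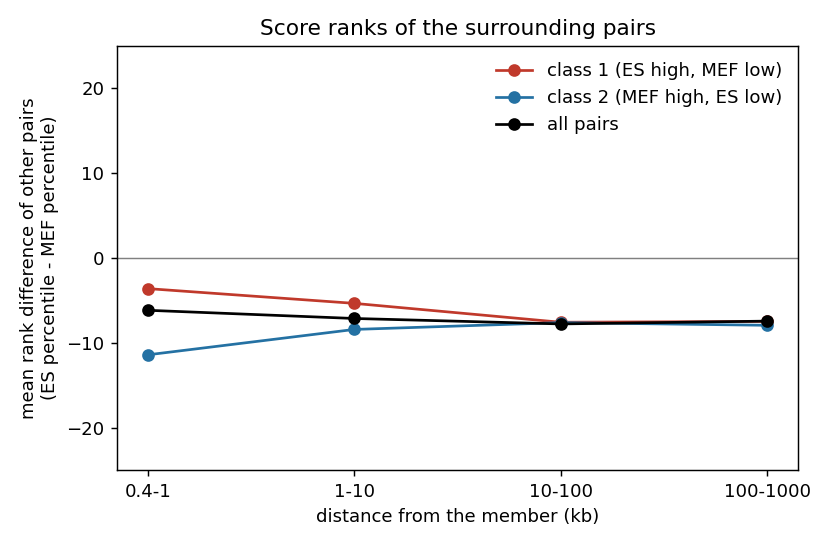
Mean rank difference (ES percentile less MEF percentile, vertical) of other pairs at 4 distances from ES-high sites (class 1), MEF-high sites (class 2) and all pairs (horizontal, kb). The lines are apart at 0.4 to 1 kb, at -3.60 and -11.4 points, and meet from 10 kb on.

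Members lay next to members of their own or of the other class about as often as random order gives. Among 5816 consecutive pairs 1 to 100 kb apart, ES-high followed ES-high 44 times, or 1.28 times the expectation from the margins (0.933 to 1.72). MEF-high followed MEF-high 110 times, or 0.900 times (0.740 to 1.09), and the classes followed each other 140 times, or 1.08 times (0.910 to 1.28). Pairs high in both lists followed each other 161 times, or 1.21 times (1.03 to 1.41). Outside chromosome 18, only 8 times did an ES-high and a MEF-high site lie within 1 kb of each other. The closest of these were on chromosome 2, where an ES-high peak at 84442685 to 84443083 (percentiles 96.9 in ES cells and 28.6 in MEFs) lay 407 bp from a MEF-high site with its ES peak at 84442278 to 84442676 (41.0 and 84.8). On chromosome 3 the ES peak at 60430628 to 60431026 (92.3 and 15.5) lay 512 bp from the one at 60430116 to 60430514 (4.54 and 92.1). On chromosome 13 the distance was 538 bp, between ES peaks starting at 5867900 (85.6 and 47.7) and 5868438 (47.7 and 82.8).

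Windows of 1 Mb held as many members as their number of pairs predicts. Of 1867 autosomal windows with a pair, 636 held an ES-high site against 630 expected if members were spread over pairs at random. MEF-high sites were in 932 windows against 957 expected, both classes in 391 against 397 expected, and neither in 690. The variance of the shares between windows was 0.98 times that of counting for ES-high and 1.01 times for MEF-high sites. The share of pairs did not follow how rich a window was. In windows with 1 to 3 pairs, 7.36% were ES-high (6.13 to 8.81) and 14.2% MEF-high (12.5 to 16.0), and in windows with 21 to 45 pairs the shares were 7.58% (6.31 to 9.09) and 15.7% (13.9 to 17.7). Pairs high in both lists went from 13.1% (11.5 to 14.9) to 17.4% (15.5 to 19.5) in the same windows.

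A few windows held many members. Chromosome 9 from 108000001 to 109000000 held 7 ES-high sites among 22 pairs (31.8%, 16.4 to 52.7), against 1.71 expected, and 1 MEF-high site. Their ES percentiles ran from 80.04 to 97.9 with a median of 97.0, and their MEF percentiles from 10.3 to 39.9. The ES peaks at 108233072 to 108233470 (score 184), 108241540 to 108241938 (196), 108838377 to 108838775 (215) and 108902792 to 108903190 (214) were among them. The ES peaks starting at 108651412 and 108651694 both had the MEF peak at 108651487, with a score of 32, as their partner, so these 7 sites rest on fewer separate MEF peaks. Chromosome 2 from 152000001 to 153000000 followed with 5 ES-high sites among 28 pairs (17.9%, 7.88 to 35.6), against 2.18 expected. A total of 9 windows held 4, among them chromosome 10 from 80000001 to 81000000, which was taken next by the tie rule. It had 4 ES-high and 5 MEF-high sites among 40 pairs, against 3.11 and 5.95 expected. Its numbers were thus near those that its many pairs predict.

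MEF-high sites were most frequent on chromosome 15 from 79000001 to 80000000, with 10 among 23 pairs (43.5%, 25.6 to 63.2) against 3.42 expected, beside 3 ES-high sites. Their MEF percentiles ran from 84.8 to 98.7 and their ES percentiles from 3.06 to 43.2. The highest MEF score, 184, belonged to the site whose ES peak lay at 79501005 to 79501403 with a score of 43. The ES peaks starting at 79963305 and 79963651 shared the MEF peak starting at 79963290, with a score of 159, so these 10 sites rest on fewer separate MEF peaks. Chromosome 4 from 134000001 to 135000000 held 8 among 15 pairs (53.3%, 30.1 to 75.2), against 2.23 expected. Chromosome 11 from 100000001 to 101000000 held 8 among 29 pairs (27.6%, 14.7 to 45.7), against 4.31 expected, with no ES-high site. On chromosome 4, 3 of the 8 sites were neighbouring ES peaks between 134622669 and 134623776 that shared the MEF peak starting at 134623049, with a score of 91. Windows with most of both classes were the one on chromosome 10, chromosome 7 from 52000001 to 53000000 and chromosome 17 from 45000001 to 46000000. On chromosome 7, 4 ES-high and 5 MEF-high sites lay among 27 pairs, against 2.10 and 4.02 expected. On chromosome 17, 4 of each class lay among 23 pairs, against 1.79 and 3.42 expected. Of its MEF-high sites, those with ES peaks starting at 45799939 and 45800487 shared the MEF peak starting at 45800190. The windows named were picked as the extremes of 1867, and an interval worked out after such a choice is too favourable.

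The balance of peaks called in 1 cell type only went weakly with ES-high sites and not visibly with MEF-high sites. Around ES-high sites, 51.2% of the unpaired peaks within 100 kb were MEF peaks, with means of 5.37 ES-only and 5.64 MEF-only peaks per site. Around MEF-high sites the share was 52.5% (5.29 and 5.84 peaks), as around all pairs (52.5%). In windows with at least 10 unpaired peaks, ES-high sites were 9.18% of pairs (7.99 to 10.52) where fewer than 45% of the unpaired peaks were MEF peaks, 8.02% (7.22 to 8.90) from 45 to 55%, 6.71% (5.94 to 7.57) from 55 to 65% and 7.65% (6.44 to 9.07) at 65% or more. The first and the third interval do not overlap, but the last group breaks the order. MEF-high sites were 14.0% (12.6 to 15.6), 14.6% (13.5 to 15.7), 15.6% (14.4 to 16.8) and 15.2% (13.5 to 17.03) in the same groups, with intervals that all overlap. All other peaks in the windows of ES-high sites were 51.8% MEF peaks (51.3 to 52.3), and in those of MEF-high sites 52.8% (52.4 to 53.3). Counted the same way, the windows of pairs high in both lists gave 52.7% (52.3 to 53.1) and those of pairs low in both 52.9% (52.5 to 53.3), so MEF-high sites lay with these groups.

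**Figure D5:**
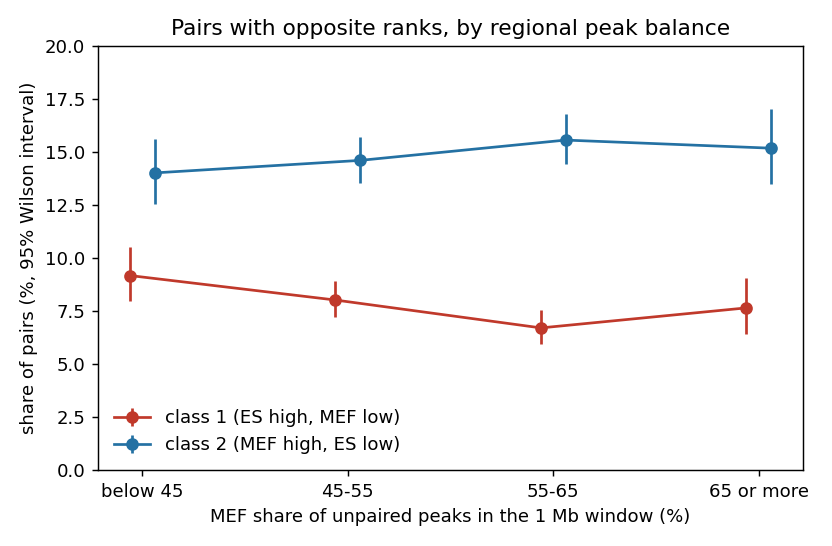
Share of pairs that were ES-high (class 1) or MEF-high (class 2), in percent with 95% Wilson intervals (vertical), in 1 Mb windows grouped by the percentage of MEF peaks among the unpaired peaks (horizontal). ES-high sites go from 9.18% to 6.71% over the first 3 groups and stand at 7.65% in the last, while MEF-high sites stay between 14.0% and 15.6%.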

How the data were processed

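CTCF peaks were taken as the authors deposited them, 1 list per cell type, each giving the position and a score of every peak; what the deposited score measures is stated nowhere, and it served only for ranks. The build is mm9 per the submitters' processing notes. The aligner, peak caller, threshold, input control and read number are not given in the labels or files used here, so the depth behind each peak is unknown. Each peak spans 399 bp read as BED, and printed positions count from 1.

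ES peaks were paired with the nearest MEF peak by start, and the 11413 overlapping autosomal pairs equalled the bedtools 2.31.1 count. Removing scores of 400 or more left out 130 pairs. The top 20% means a score at or above percentile 80 of the whole list. Expected numbers are products of margins, without resampling. Intervals are 95% and cover counting error only, since they treat pairs as independent. With 1 library per cell type, no p-value was computed. The pairing and ratios were tested on simulated data with widely spaced peaks and at most 1 MEF peak overlapping each ES peak. Peaks with shared or several partners were not simulated. The members were chosen with earlier results of these data known, and the offset bands, the window groups, the consecutive pairs and the split by rank of the weaker partner were added to the plan. Sites were named by a rule: the 6 largest percentile differences per class, the pairs at the score limits, the 3 windows with most members of each class and of both, and the 3 closest opposite sites, leaving out chromosome 18. The tools were scipy 1.17.1, numpy 2.4.6, matplotlib 3.10.9 and pandas 2.3.3 in Python 3.11.15. Motif content and gene annotation of mm9 were not analysed here.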

Additional observations from a re-analysis of the deposited data

Results flagged for a closer look

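Pairs outside the autosomes entered no comparison, but both classes on X, and MEF-high sites on random and unplaced sequences, were above the 3 counts that a count of 0 allows. On X, 142 pairs included 15 ES-high sites (10.6%, 95% Wilson interval 6.51 to 16.7) and 13 MEF-high sites (9.15%, 5.43 to 15.03), so that MEF-high sites did not outnumber ES-high sites as they did on each autosome. The intervals include the autosomal shares of 7.78% and 14.9%, and the difference was not tested. Random and unplaced sequences gave 4 MEF-high and 2 ES-high sites among 25 pairs. The mitochondrial genome gave 1 MEF-high and 0 ES-high sites among 7 pairs.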

How the results depend on the processing

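Under the alternatives, 82 values were recomputed: 65 remained inside their 95% interval (numbers of sites: within 1.5 times), 17 left it and 0 changed direction. A change of direction was defined only for the ratios to random pairing and the surrounding rank differences, so the 0 says nothing about the other results. The ratio to random pairing stayed between 0.745 and 0.903 in both classes. With the top 10% in place of the top 20%, 491 ES-high and 1024 MEF-high sites were found, fewer by construction. With limits taken among the pairs, 912 MEF-high sites were found, a number largely set by construction, at a ratio of 0.806. Another ES peak lay within 1 kb at 25.9% and another MEF peak at 15.1% of these sites. The MEF share of window peaks at ES-high sites was then 52.4%. An overlap of 50% of both peaks gave median offsets of 40 bp (ES-high) and 38 bp (MEF-high), partly by construction, and another ES peak within 1 kb at 17.8% of MEF-high sites. Mutually nearest pairs gave 41 bp and 17.7% for MEF-high sites, both partly by construction. Of several ES peaks on 1 MEF peak only the nearest was then kept. Pairs with no other peak within 1 kb gave 41 bp (ES-high) and 40.5 bp (MEF-high), and a surrounding rank difference of -5.20 at MEF-high sites, where surroundings up to 20 kb gave -4.74. ES-high sites gave -6.95 and -6.86 in these settings, below MEF-high sites, so the order of the classes is not stable. In windows of 500 kb the MEF share at ES-high sites was 51.3%. Where no construction is named, the cause was not tested. No paired analysis was possible because there is only 1 library on either side. Motif content was not run. Read depth is unknown, so what it limits was not tested.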
